A study of Mus musculus with 4 samples.

Results

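10 genes of sugar breakdown and low-oxygen response were followed through 4 single-cell libraries of mouse thoracic aorta: Slc2a1, Hk2, Aldoa, Tpi1, Pgk1, Eno1, Pkm, Ldha, Vegfa and Ndufa4l2. They were taken by name, as 10 of the 17524 genes in the count tables, and every one of them had a row in all 4 tables. Their unique molecular identifiers (UMIs, the tags that let each captured transcript be counted once) were summed over cells sorted by marker counts. Cells with at least 3 UMIs of Myh11, the smooth muscle myosin heavy chain, made the smooth muscle (SMC) gate. Cells with at least 10 UMIs of Dcn plus Lum, proteoglycan genes of fibroblasts, and at most 1 of Myh11 made the fibroblast gate. Cells with at least 10 UMIs of Lyz2, C1qa and C1qb, genes of macrophages and monocytes, and fewer than 10 of Dcn plus Lum made the phagocyte gate.

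Glycolysis splits glucose into pyruvate in the cytosol. Slc2a1 (GLUT1) brings glucose into the cell, Hk2 traps it as glucose 6-phosphate, Aldoa, Tpi1, Pgk1, Eno1 and Pkm carry out later steps of the chain, and Ldha turns pyruvate into lactate. When oxygen is short, or under several inflammatory and growth signals, the transcription factor HIF-1 accumulates and can raise genes of this chain together with Vegfa, the growth factor for blood vessels, and Ndufa4l2, a mitochondrial protein that lowers the activity of respiratory complex I. In the artery wall, smooth muscle cells, fibroblasts and macrophages all run glycolysis, and its rate changes with cell activation.

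Values given in fours run from WT saline through WT AngII and KO saline to KO AngII. Each group was 1 library made from the aortas of 3 mice pooled together, so differences between mice could not be measured. The wild type (WT) saline and KO saline mice were on normal diet with saline, and the WT AngII and KO AngII mice had high fat diet for 5 weeks and infusion of angiotensin II (AngII), a hormone that constricts arteries, for 7 days. Diet and infusion therefore cannot be told apart, and "AngII" below stands for both. KO is a whole-body knockout of Sting, a signalling protein of the response to DNA in the cytosol. The age of the mice was not given in the sources used here. Tmem173, the gene for Sting, had 1.75, 7.03, 1.33 and 6.10 CPM (counts per 1000000 UMIs) over the whole libraries. Tmem173 was thus not depleted in the KO libraries. The altered stretch of the gene was not given in the sources used here, and a 3′ tag outside it would check nothing, so KO below means the library labelled KO.

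After cells with fewer than 500 genes or more than 20% mitochondrial UMIs were left out, 9242, 8475, 12024 and 8496 cells remained, with median depths of the deposited cells of 5888, 9938, 6071 and 9294 UMIs. The SMC gate held 7546, 5889, 10350 and 5660 of them. The fibroblast gate held 1021, 1696, 506 and 1879 cells, and the phagocyte gate 285, 705, 83 and 559. Because the gates ask for a fixed number of UMIs, a deeper library passes more cells, so gate sizes are not read as cell numbers here. The gates fitted their markers: the summed level of 6 smooth muscle markers was 34919 to 43998 CPM in the SMC gate, that of 6 fibroblast markers 16032.5 to 37062 CPM in the fibroblast gate and that of 6 phagocyte markers 9613 to 12317 CPM in the phagocyte gate. Each also held RNA of its neighbours. Between 18 and 85 cells of a library passed both the SMC and the phagocyte gate, fibroblast markers in the SMC gate summed to 2796 and 2831 CPM in the saline libraries and 6634 and 6325 CPM with AngII, and Cnn1, a smooth muscle gene, stood in the phagocyte gate at 15.9% to 16.7% of its SMC level. Pairs of libraries shared 92 to 148 cell barcodes.

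A gene was counted in a comparison when its mean level over the 2 libraries amounted to at least 30 UMIs in the smaller of them, and it is called higher or lower at a ratio of 1.5-fold or more. Intervals are exact 95% intervals that cover counting error only. With 1 library a group no test between groups was possible and no p-value is given.

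The members' promoters are shown first, since several carry ACGTG, a core form of the site that HIF is known to bind. RefSeq promoter windows (250 bases before to 50 after a start site, GRCm38.p6) were found for 9 of the 10 genes, 16 windows in all; Ndufa4l2 had none. The core ACGTG was searched on both strands, where it reads CACGT on the other strand, and CACGTG holds both. It was found in 8 of the 16 windows and in 7 of the 9 genes, beside 19.6% of all 32851 windows and 21.8% of all 27025 genes in the table. The Aldoa windows with a match overlap and share the same site, so it is counted in both. For Vegfa, the window at the gene start (chr17:46032328-46032627) had 0 matches and a window inside the gene (chr17:46025114-46025413) had 1. The members had more windows per gene than the table as a whole, so the gene shares are not strictly alike. Eno1 and Tpi1 had no ACGTG on either strand of their windows, and other forms of the site were not searched. The 4 windows below were chosen because they hold matches, to show how these lie in the enzyme with the most of them, in 2 other enzymes and in the transporter, and capitals mark the matches. Ldha lies at chr7:46845554-46845853 on the plus strand, Pgk1 at chrX:106186850-106187149 on the plus strand, Hk2 at chr6:82774405-82774704 on the minus strand and Slc2a1 at chr4:119108495-119108794 on the plus strand.
Ldha: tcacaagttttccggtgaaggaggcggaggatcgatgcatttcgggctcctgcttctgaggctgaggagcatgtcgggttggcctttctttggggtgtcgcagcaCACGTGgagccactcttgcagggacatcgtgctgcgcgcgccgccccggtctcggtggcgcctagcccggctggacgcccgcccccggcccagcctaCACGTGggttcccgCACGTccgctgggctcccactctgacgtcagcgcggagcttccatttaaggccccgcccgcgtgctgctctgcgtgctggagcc
Pgk1: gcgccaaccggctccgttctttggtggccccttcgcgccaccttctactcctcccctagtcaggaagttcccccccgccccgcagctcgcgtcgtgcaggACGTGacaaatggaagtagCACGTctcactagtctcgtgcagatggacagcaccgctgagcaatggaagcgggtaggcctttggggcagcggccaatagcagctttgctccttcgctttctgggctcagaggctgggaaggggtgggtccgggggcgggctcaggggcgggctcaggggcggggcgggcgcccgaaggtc
Hk2: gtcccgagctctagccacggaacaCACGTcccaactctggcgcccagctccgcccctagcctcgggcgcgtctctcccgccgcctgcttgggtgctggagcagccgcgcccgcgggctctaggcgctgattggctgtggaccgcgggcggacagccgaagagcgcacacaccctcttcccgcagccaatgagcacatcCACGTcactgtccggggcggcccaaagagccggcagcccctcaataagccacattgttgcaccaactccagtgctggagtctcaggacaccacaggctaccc
Slc2a1: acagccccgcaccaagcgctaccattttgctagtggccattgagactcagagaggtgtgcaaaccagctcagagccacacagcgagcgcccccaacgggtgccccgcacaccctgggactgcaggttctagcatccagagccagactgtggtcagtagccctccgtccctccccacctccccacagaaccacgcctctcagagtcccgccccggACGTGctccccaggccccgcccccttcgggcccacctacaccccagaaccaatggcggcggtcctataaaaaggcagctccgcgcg

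The Ldha window shown held 5 matches, 2 on its own strand and 3 on the other, and the other Ldha window (chr7:46846832-46847131) held 0. In the window shown, 4 of the matches came as the palindrome CACGTG. Windows with 5 or more matches made up 0.183% of all windows, and those with 2 or more, as for Pgk1, Hk2 and 1 of the Pkm windows, 8.21%. Slc2a1 had 1 match. A match describes letters and is not evidence of binding.

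**Figure D1:**
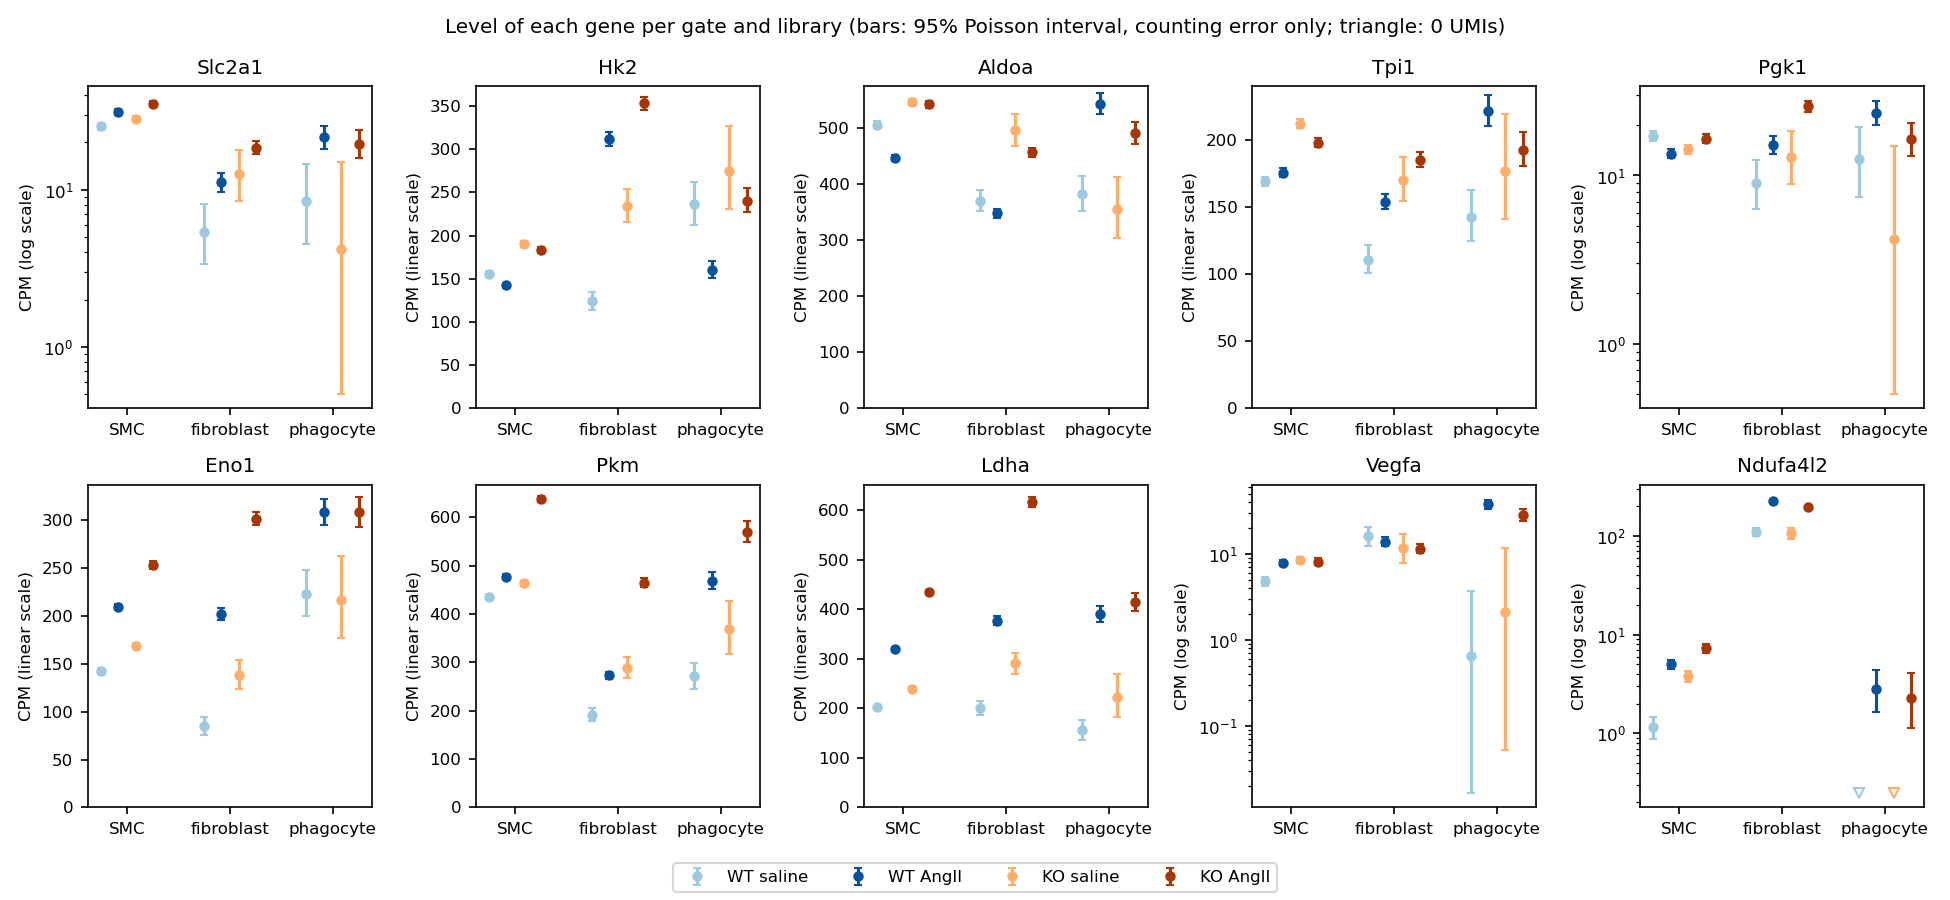
Level of each gene in CPM (y axis, linear or log as labelled) in the SMC, fibroblast and phagocyte gates (x axis) of the 4 libraries (colours). Points are summed counts of 1 library, bars are 95% Poisson intervals for counting error, and triangles mark 0 UMIs. Ldha is above its saline level in both AngII libraries in every gate, and Ndufa4l2 stands at 107 to 227 CPM in the fibroblast gate against at most 7.25 CPM elsewhere.

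Slc2a1, the glucose transporter, lies at chr4:119108711-119137983 on the plus strand (GRCm38, as for all gene positions below). Its levels in the SMC gate were 25.3, 31.2, 28.3 and 35.2 CPM. In the fibroblast gate they were 5.35, 11.1, 12.5 and 18.5 CPM, from 22, 199, 31 and 455 UMIs. Smooth muscle cells had the 4 highest of the 12 values, and all but the lowest of these were separated from the value below by their counting intervals. In the phagocyte gate Slc2a1 was at 8.52, 21.5, 4.17 and 19.6 CPM, the KO saline value resting on 2 UMIs. The AngII over saline log2 ratio was 0.31 (0.21 to 0.41) in WT and 0.32 (0.23 to 0.40) in KO smooth muscle cells, both short of 1.5-fold. In fibroblasts it was 1.06 (0.42 to 1.76) in WT, which is called higher, and 0.56 (0.03 to 1.13) in KO, which is not. Phagocytes gave 1.33 (0.51 to 2.28) and 2.23 (0.34 to 5.30), with too few UMIs to be counted.

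Hk2 encodes hexokinase 2, which phosphorylates glucose as the first step of the chain, and lies at chr6:82725025-82774454 on the minus strand. Its fibroblast levels were 124, 312, 234 and 353 CPM. Both AngII libraries stood above both saline libraries. The log2 ratio was 1.33 (1.20 to 1.46) in WT and 0.59 (0.47 to 0.72) in KO. The other gates did not share this: SMC levels were 156, 143, 190 and 183 CPM, with ratios of -0.13 and -0.05, and phagocyte levels were 237, 161, 275 and 240 CPM, with ratios of -0.56 and -0.19. The phagocyte ratios were below 0 where the fibroblast ratios were above it, but neither passed 1.5-fold and the KO interval (-0.46 to 0.08) includes 0. The KO SMC ratio turns to 0.10 under TMM scaling. The KO fibroblast ratio falls under 1.5-fold with exclusive gates (0.58) and with cells of at least 3000 UMIs (0.48). Exclusive gates leave out SMC cells with at least 10 UMIs of Dcn plus Lum or of Lyz2, C1qa and C1qb. They also leave out fibroblasts with at least 10 UMIs of Lyz2, C1qa and C1qb, and phagocytes with more than 1 of Myh11. Lower counts of other gates' markers remain in them.

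At an equal depth of 2000 UMIs a cell, 11.7% of the fibroblasts of WT saline had an Hk2 UMI (exact binomial interval 9.72 to 13.9, 949 cells) and 32.3% of those of WT AngII did (30.1 to 34.6, 1696 cells). In KO the shares were 19.7% with saline (16.3 to 23.5, 492 cells) and 39.4% with AngII (37.2 to 41.7, 1879 cells). Before thinning the shares were 17.4%, 58.5%, 26.9% and 75.9%. The thinning left out 72 and 14 shallower cells of the WT saline and KO saline gates and none of the AngII gates. The share follows from the level at this depth, so it does not separate more cells with the transcript from more transcript in each cell.

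Aldoa and Tpi1, aldolase A and triosephosphate isomerase, split and interconvert the sugar phosphates in the middle of the chain. Aldoa levels were 505, 445, 546 and 541 CPM in the SMC gate, 370, 347, 495 and 456 CPM in fibroblasts and 382, 543, 354 and 491 CPM in phagocytes. With AngII its log2 ratio was -0.18 and -0.01 in WT and KO smooth muscle cells and -0.09 and -0.12 in fibroblasts, against 0.51 (0.38 to 0.64) and 0.47 (0.24 to 0.70) in phagocytes. Aldoa was thus above its saline level in phagocytes only, and none of its 6 ratios passed 1.5-fold. The fibroblast ratios and the KO SMC ratio turn positive under TMM and median-of-ratios scaling. The annotation of this build (GENCODE M21) has 2 genes named Aldoa, at chr7:126795234-126800751 and chr7:126800790-126809108 on the minus strand, and the single Aldoa row of the tables cannot be assigned to either.

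Tpi1 (chr6:124810586-124814296, minus strand) was at 169, 176, 212 and 198 CPM in smooth muscle cells. Its fibroblast levels were 111, 154, 171 and 185 CPM and its phagocyte levels 143, 222, 177 and 193 CPM. WT saline was the lowest library in each gate. The largest AngII over saline log2 ratios were in WT, 0.48 (0.33 to 0.62) in fibroblasts and 0.64 (0.43 to 0.85) in phagocytes, the latter called higher, whereas the KO ratios were 0.12 in both gates with intervals that include 0.

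Pgk1 makes ATP directly as phosphoglycerate kinase 1 and lies on the X chromosome (chrX:106187100-106203699, plus strand). Few of its transcripts were captured: 17.2, 13.5, 14.3 and 16.6 CPM in smooth muscle cells, and 8.99, 15.2, 12.9 and 25.7 CPM in fibroblasts, the last from 634 UMIs. In phagocytes it had 12.4, 23.6, 4.17 and 16.5 CPM. The fibroblast log2 ratio was 0.76 (0.26 to 1.30) in WT and 0.99 (0.48 to 1.55) in KO, called higher in both. In smooth muscle cells the 2 genotypes had opposite signs, -0.35 (-0.48 to -0.21) in WT and 0.22 (0.09 to 0.34) in KO. The near-identical copy Pgk1-rs7 had at most 0.404 CPM in any gate.

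Eno1, the enolase that precedes pyruvate kinase (chr4:150236721-150248879, plus strand), was at 84.8, 202, 139 and 302 CPM in fibroblasts. The AngII over saline log2 ratio there was 1.25 (1.09 to 1.42) in WT and 1.12 (0.97 to 1.28) in KO, or 2.38-fold and 2.18-fold. Smooth muscle levels were 142, 209, 169 and 253 CPM, with ratios of 0.56 (0.51 to 0.60) and 0.58 (0.55 to 0.62) that end just short of 1.5-fold. Phagocytes had 223, 309, 217 and 309 CPM and ratios of 0.47 and 0.51. All 6 Eno1 ratios were above 0 with intervals that exclude 0. Its copy Eno1b had at most 0.771 CPM.

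Pkm encodes the pyruvate kinase of muscle and most other tissues (chr9:59656368-59679375, plus strand), and gene-level counts do not separate its isoforms. Its levels were 436, 477, 464 and 637 CPM in smooth muscle cells, 191, 273, 288 and 465 CPM in fibroblasts and 271, 469, 369 and 571 CPM in phagocytes. KO AngII was the highest library in all 3 gates. With AngII the log2 ratio was 0.79 (0.64 to 0.94) in WT and 0.63 (0.41 to 0.86) in KO phagocytes, both called higher. In fibroblasts it was 0.51 in WT and 0.69 (0.58 to 0.80) in KO, of which the second is called higher, and in smooth muscle cells 0.13 and 0.46.

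Ldha, lactate dehydrogenase A, makes lactate from pyruvate and lies at chr7:46841475-46855627 on the plus strand. It was at 202, 320, 239 and 434 CPM in smooth muscle cells. Fibroblasts had 200, 377, 291 and 616 CPM, and phagocytes 156, 390, 223 and 415 CPM. In every gate both AngII libraries lay above both saline libraries, and KO AngII was the highest of the 4. The log2 ratio was 0.66 (0.63 to 0.70) and 0.86 (0.83 to 0.89) in WT and KO smooth muscle cells. It was 0.91 (0.81 to 1.02) and 1.09 (0.98 to 1.20) in fibroblasts, and 1.32 (1.13 to 1.52) and 0.90 (0.62 to 1.19) in phagocytes. Ldha was the only one of the 10 genes called higher in all 3 gates and both genotypes.

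The share of cells with an Ldha UMI at 2000 UMIs a cell moved the same way in smooth muscle cells, from 31.3% (WT saline) to 44.4% (WT AngII) and from 37.5% (KO saline) to 49.6% (KO AngII). In fibroblasts it went from 31.0% to 47.8% and from 39.6% to 63.1%. Unthinned, the fibroblast shares were 48.7%, 85.0%, 60.1% and 95.9%. In phagocytes the WT share went from 21.9% (17.2 to 27.2) to 49.1% (45.3 to 52.8), and the KO shares, 42.7% (31.8 to 54.1, 82 cells) and 48.5% (44.3 to 52.7), had overlapping intervals.

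Vegfa, the vessel growth factor (chr17:46016993-46032369, minus strand), was scarce in saline phagocytes and not in AngII phagocytes. WT phagocytes had 1 UMI with saline (0.655 CPM) and 242 with AngII (37.6 CPM, 33.0 to 42.7). KO phagocytes had 1 with saline (2.08 CPM) and 138 with AngII (28.5 CPM, 23.9 to 33.7). The ratios of these counts are 57.4-fold in WT, with a log2 interval of 3.35 to 11.15, and 13.7-fold in KO, with a log2 interval of 1.27 to 9.09. Both rest on 1 saline UMI, so the gene was not counted in these comparisons. At 2000 UMIs a cell, 39 of 705 WT AngII phagocytes (5.53%, 3.96 to 7.49) and 26 of 559 KO AngII phagocytes (4.65%, 3.06 to 6.74) had a Vegfa UMI, against 0 of 283 and 0 of 82 in the saline libraries, where the upper interval ends are 1.30% and 4.40%. Unthinned shares were 0.351%, 18.4%, 1.205% and 13.4%.

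Smooth muscle cells and fibroblasts showed no comparable pattern for Vegfa. In smooth muscle cells it was at 4.80, 7.79, 8.56 and 8.12 CPM. WT saline alone was low there: the AngII ratio was 0.70 (0.48 to 0.92) in WT, called higher, and -0.08 (-0.25 to 0.10) in KO. Fibroblasts had 16.04, 13.9, 11.7 and 11.5 CPM, and all 4 differed by less than 1.5-fold. The level of Vegfa in AngII phagocytes was above that of both other gates in the same libraries.

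Ndufa4l2 (chr10:127514967-127517154, plus strand) was a fibroblast transcript in these aortas. Fibroblasts had 110, 227, 107 and 195 CPM (453, 4056, 264 and 4806 UMIs). The AngII over saline log2 ratio was 1.04 (0.90 to 1.19) in WT and 0.87 (0.69 to 1.06) in KO, called higher in both. At 2000 UMIs a cell, 18.9%, 32.6%, 20.3% and 29.9% of fibroblasts had a UMI, and 26.7%, 62.4%, 28.9% and 63.7% did before thinning. The 2 saline values did not differ beyond their counting intervals, and WT AngII was the highest.

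In smooth muscle cells Ndufa4l2 was at 1.15, 5.02, 3.80 and 7.25 CPM, and the log2 ratios of 2.12 (1.72 to 2.54) in WT and 0.93 (0.71 to 1.16) in KO are called higher. These levels were 1.05%, 2.21%, 3.56% and 3.72% of the fibroblast level. Dcn, which defines the fibroblast gate, stood in the SMC gate at 1.22%, 2.63%, 1.996% and 3.77% of its fibroblast level. Dpt, another fibroblast gene, stood at 1.21%, 2.54%, 2.03% and 3.73%, and Pdgfra, a further one, at 4.49%, 6.20%, 5.81% and 7.73%. With exclusive gates Ndufa4l2 was at 0.620%, 0.567%, 1.94% and 0.752% of its fibroblast level. Dcn was then at 0.333% to 0.701%, Dpt at 0.510% to 0.863% and Pdgfra at 3.67% to 4.20%. The Ndufa4l2 levels were 0.684, 1.30, 2.06 and 1.47 CPM, and its ratio was 0.93 in WT and -0.49 in KO. The KO ratio thus changed direction with the gate, and it was -0.09 when each cell had equal weight. The part of fibroblast RNA in it was not tested further. In phagocytes Ndufa4l2 had 0, 18, 0 and 11 UMIs. Set against a floor of 3 UMIs in the saline library, that is at least 1.42-fold higher in WT AngII, and no fold can be given in KO, where both values are under the floor of KO saline. As 0.142% and 0.358% of AngII phagocytes had a UMI at matched depth, this is near the level of single UMIs.

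**Figure D2:**
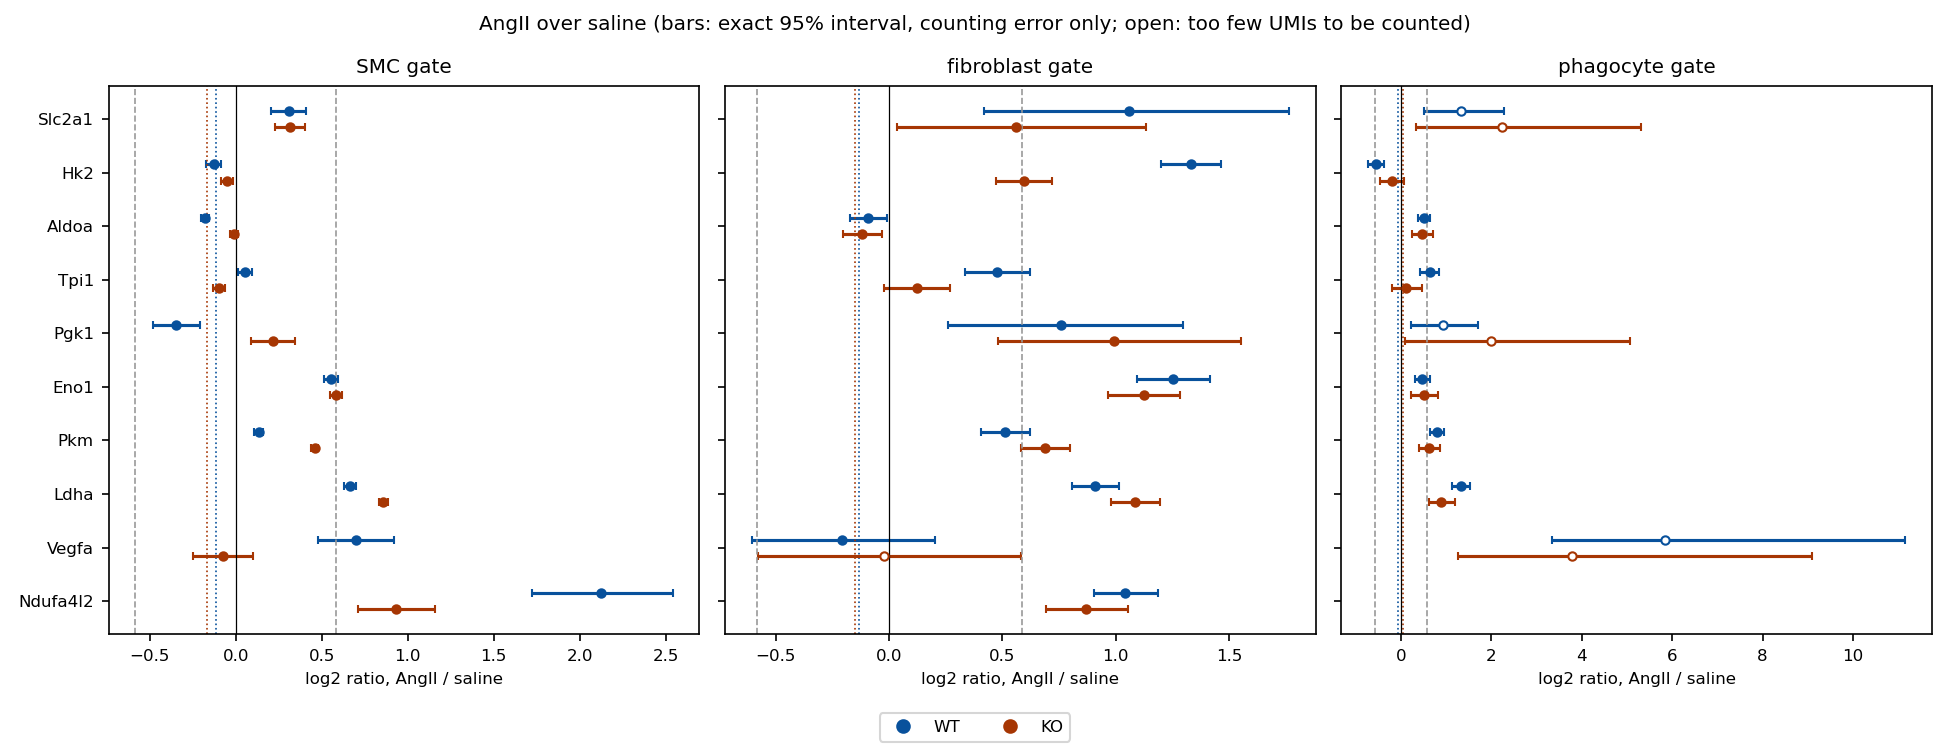
Log2 ratio of AngII over saline (x axis) for each gene (y axis) in the 3 gates (panels), for the 2 genotypes (colours). Bars are exact 95% intervals for counting error, open points had too few UMIs to be counted, dashed lines mark 1.5-fold and dotted lines the median of all genes counted. Ldha lies to the right of the dashed line in every panel and genotype, while Aldoa and Hk2 lie on different sides of 0 in different gates.

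Counted over the members, several were called higher with AngII in each gate and none was called lower, except Hk2 in WT phagocytes with exclusive gates (-0.68). In WT smooth muscle cells 3 of 10 counted genes were higher (Ldha, Vegfa, Ndufa4l2) and 0 lower, beside 12.4% higher and 16.3% lower of all 12341 genes counted. In WT fibroblasts 6 of 10 were higher (Slc2a1, Hk2, Pgk1, Eno1, Ldha, Ndufa4l2) and 0 lower, where 12% and 20.4% of 8654 genes were. In WT phagocytes 3 of 6 were higher (Tpi1, Pkm, Ldha) and 0 lower, beside 10.9% and 14.2% of 5231.

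In KO, smooth muscle cells had 2 of 10 higher (Ldha, Ndufa4l2) beside 10.5%, and 0 lower beside 18.6%. With exclusive gates or equal weight for each cell 1 of 10 was higher, beside 8.88% and 8.63% of all genes. The Ndufa4l2 ratio was then -0.49 or -0.09. Fibroblasts had 6 of 9 higher (Hk2, Pgk1, Eno1, Pkm, Ldha, Ndufa4l2) beside 12.7%, and 0 lower beside 24.7%. Phagocytes had 2 of 6 higher (Pkm, Ldha) beside 10.8%, and 0 lower beside 11.1%. TMM scaling adds 0.11 (WT) and 0.15 (KO) to the log2 ratios of smooth muscle cells, 0.13 and 0.15 to those of fibroblasts and 0.05 and -0.06 to those of phagocytes. Under it 4 members were higher in smooth muscle cells of either genotype, Eno1 joining in both and Pkm in KO. The share of all genes was then 15.4% in WT and 13.6% in KO. The median log2 ratio of the counted members was 0.22 in WT and 0.27 in KO smooth muscle cells, 0.83 and 0.69 in fibroblasts and 0.57 and 0.49 in phagocytes, against -0.12, -0.17, -0.13, -0.15, -0.06 and 0.04 over all genes counted in the same order.

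Members higher in both genotypes numbered 2 of 10 in smooth muscle cells (Ldha, Ndufa4l2), where 6.75% of 12230 genes were higher and 9.12% lower in both. Of these 2, Ndufa4l2 is lost with exclusive gates or equal weight for each cell, where its KO ratio is below 0. In fibroblasts they were 5 of 9 (Hk2, Pgk1, Eno1, Ldha, Ndufa4l2), beside 7.31% higher and 11.5% lower. In phagocytes they were 2 of 6 (Pkm, Ldha), beside 4.7% higher and 5.47% lower. In these counts 0 members were lower in both genotypes. The summed level of the 7 enzymes from Aldoa and Hk2 to Ldha was 1628, 1784, 1835 and 2264 CPM in smooth muscle cells, 1091, 1680, 1630 and 2404 CPM in fibroblasts and 1424, 2118, 1620 and 2235 CPM in phagocytes.

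Other measures moved with AngII too. The summed level of 13 genes induced by tissue dissociation (Fos, Jun, Hspa1a and the like) was 13395, 8614, 15734 and 6988 CPM in fibroblasts and 16253, 7769, 16786 and 7749 CPM in phagocytes, lower with AngII, and 9912, 7203, 13613 and 10572 CPM in smooth muscle cells. Median depth in fibroblasts was 3608, 9153.5, 3874.5 and 11779 UMIs. All 6 endothelial markers summed to 173 and 131 CPM in saline and to 29.2 and 18.3 CPM in AngII fibroblasts. With cells of at least 3000 UMIs alone, the fibroblast ratio of Hk2 was 1.17 in WT and 0.48 in KO, the latter under 1.5-fold, and that of Ndufa4l2 was 1.28 and 0.999. Under that filter 5 of 9 counted members were higher in WT fibroblasts and 6 of 9 in KO, beside 12.1% and 12.9% of all genes. The part of these measures in the members' ratios was otherwise not tested.

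**Figure D3:**
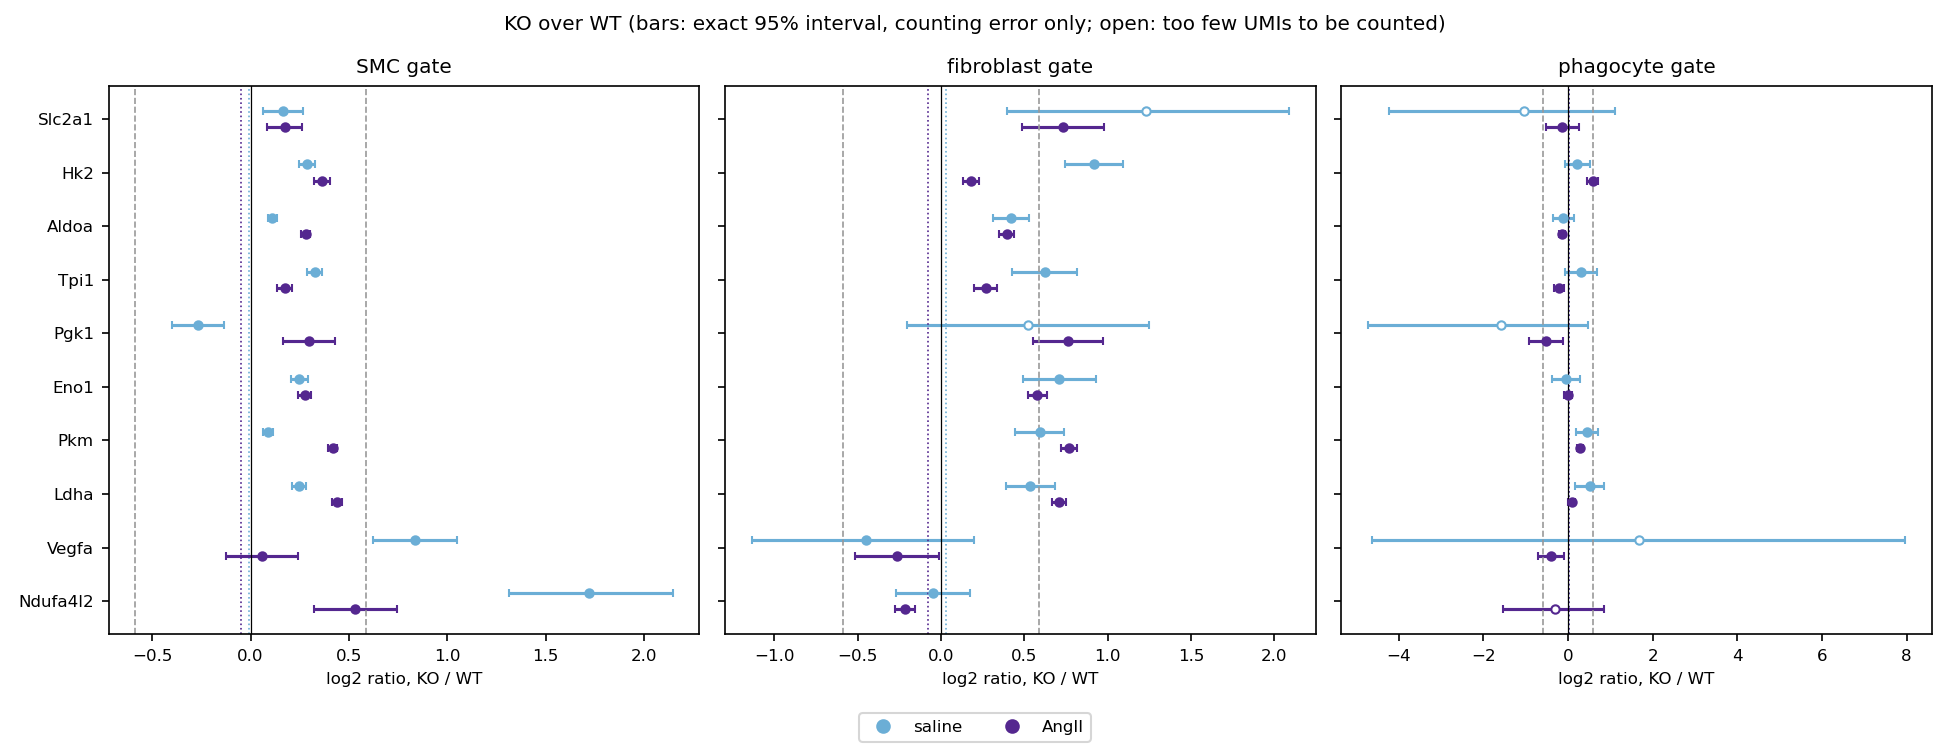
Log2 ratio of KO over WT (x axis) for each gene (y axis) in the 3 gates (panels), in saline and AngII libraries (colours). Bars are exact 95% intervals for counting error, open points had too few UMIs to be counted, dashed lines mark 1.5-fold and dotted lines the median of all genes counted. In the fibroblast panel the glycolysis enzymes lie to the right of 0 in both treatments, and Ndufa4l2 and Vegfa do not.

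The libraries labelled KO were compared with WT at each treatment. In AngII fibroblasts Pkm (0.77, 0.72 to 0.82), Pgk1 (0.76, 0.55 to 0.97), Slc2a1 (0.73, 0.49 to 0.98) and Ldha (0.71, 0.67 to 0.75) were higher in KO on the log2 scale. These were 4 of 10 counted members, with 0 lower, while 5.94% of 11230 genes were higher and 14.6% lower. Eno1 followed at 0.58 (0.52 to 0.64), just under 1.5-fold and past it under TMM scaling, Aldoa at 0.39 and Tpi1 at 0.27. Hk2 differed little, 0.18 (0.13 to 0.23), and Ndufa4l2 (-0.22) and Vegfa (-0.27) were on the other side of 0.

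In saline fibroblasts Hk2 (0.92, 0.74 to 1.09), Eno1 (0.71, 0.49 to 0.93), Tpi1 (0.62, 0.43 to 0.82) and Pkm (0.59, 0.44 to 0.74) were higher in KO, 4 of 8 counted members with 0 lower, beside 10.3% higher and 8.34% lower of 7205 genes. Under TMM scaling 2 of the 4 stayed past the fold. Ldha (0.53) and Aldoa (0.42) were under it, and the Ndufa4l2 interval includes 0 (-0.05, -0.27 to 0.18). This gate held more smooth muscle RNA in KO: all 6 smooth muscle markers had UMIs in every library, and they summed to 5491 CPM in KO saline against 1684 in WT saline, 1284 in WT AngII and 2271 in KO AngII. Cnn1 stood there at 12.9% of its SMC level in KO saline and at 2.47% to 3.80% in the other libraries. With exclusive gates it was at 12.7% in KO saline, but for fibroblasts these set no further limit on smooth muscle markers. Tagln, another smooth muscle gene, stood at 3.48%, 3.33%, 11.6% and 6.75% of its SMC level. The part of smooth muscle RNA in the KO over WT ratios of fibroblasts, in saline and with AngII, was not tested.

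In smooth muscle cells the genotypes lay closer. With AngII 0 of 10 members were higher or lower, beside 5.07% and 5.67% of 12497 genes. The largest ratios were those of Ndufa4l2 (0.53), Ldha (0.44, 0.41 to 0.47) and Pkm (0.42, 0.40 to 0.44). All 10 were above 0, 9 of them with intervals that exclude 0, and that of Vegfa (0.06, -0.12 to 0.24) includes it. The members' median was 0.29, against -0.05 over all genes counted. The share of all genes above 0 was not worked out. In saline 2 of 10 were higher and 0 lower, beside 6.84% and 5.92% of 12194: Vegfa at 0.83 (0.62 to 1.05) and Ndufa4l2 at 1.72 (1.31 to 2.14). Fibroblast genes in the SMC gate did not all move the same way. Dcn stood at 1.22% of its fibroblast level in WT saline and 1.996% in KO saline. The 6 fibroblast markers summed to 2796 and 2831 CPM there. With exclusive gates Ndufa4l2 was at 0.684 and 2.06 CPM and Dcn at 37.8 and 76.7 CPM. Dpt was then at 6.37 and 8.43 CPM and Pdgfra, another fibroblast gene, at 8.64 and 6.97 CPM. The part of fibroblast RNA in the ratio was not tested further. The ratios of the other 8 members ran from -0.27 (Pgk1) to 0.33 (Tpi1).

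Pericyte markers in the SMC gate summed to 340, 404, 552 and 1063 CPM, higher in KO at both treatments, and their part in the SMC ratios was not tested. In phagocytes 0 of 6 counted members in saline were higher or lower, beside 7.21% and 6.3% of 2095 genes. With AngII 0 of 9 were, beside 3.66% and 5.46% of 8513. Hk2 came nearest, at 0.58 (0.46 to 0.70) with AngII, and passed the fold with exclusive gates (0.65). The KO AngII library enters both this comparison and that of AngII with saline in KO.

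**Figure D4:**
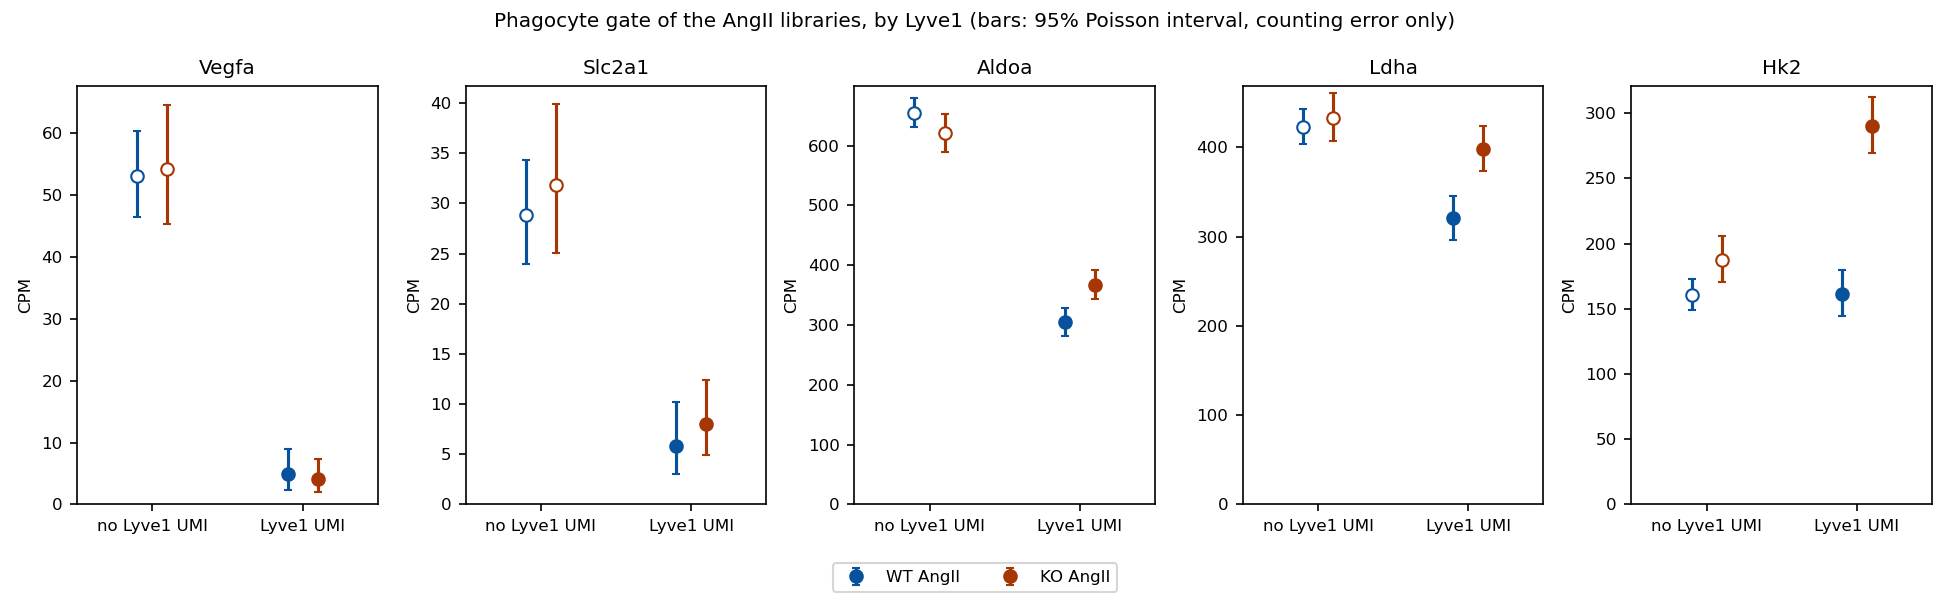
Level in CPM (y axis) of 5 genes in phagocytes of the 2 AngII libraries, in cells with and without a Lyve1 UMI. Bars are 95% Poisson intervals for counting error. Vegfa stands at 53.0 and 54.3 CPM in cells without Lyve1 and at 4.86 and 4.03 CPM in cells with it.

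Members also varied among the cells of a gate. Lyve1 is a marker of resident macrophages in the artery wall, and 93.3%, 35.2%, 63.9% and 51.3% of phagocytes had a UMI of it. Vegfa was at 53.0 CPM (46.4 to 60.3) in WT AngII cells without Lyve1 and 4.86 (2.33 to 8.94) in those with it. In KO AngII the values were 54.3 (45.3 to 64.5) and 4.03 (1.93 to 7.41). Of the Vegfa UMIs, 232 of 242 in WT AngII and 128 of 138 in KO AngII came from cells with no Lyve1 UMI, and the intervals of the genotypes overlapped. Median depth was 8233 and 7449.5 UMIs in these cells against 7486 and 7751 in those with Lyve1.

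Slc2a1 followed the same split, 28.8 CPM without and 5.84 with Lyve1 in WT AngII and 31.8 and 8.06 in KO AngII. Aldoa did so less steeply, 655 and 304 CPM in WT AngII and 621 and 367 in KO AngII. Ldha differed less, 423 and 321 CPM in WT AngII and 433 and 398 in KO AngII. Hk2 did not follow: it was at 160 and 161 CPM in WT AngII, and in KO AngII at 188 CPM without and 290 with Lyve1.

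The cells with Lyve1 can also be compared between treatments. In them Ldha was at 154 CPM in WT saline and 321 in WT AngII, and at 191 in KO saline and 398 in KO AngII. Aldoa was at 380 and 304 CPM in WT and at 322 and 367 in KO. Ldha was therefore higher with AngII among cells with Lyve1 as well, and Aldoa in WT was lower. Smooth muscle RNA was also unevenly spread, with Cnn1 at 306 CPM without and 187 with Lyve1 in WT AngII and 388 and 246 in KO AngII, and its part in the split was not tested.

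A split of AngII phagocytes by Vegfa itself was added after the values were seen. Most Vegfa UMIs came from cells with no Lyve1 UMI, as given above, so this split overlaps that by Lyve1 and is not independent of it. Depth was not matched between cells with and without a Vegfa UMI. The 130 WT AngII cells with a Vegfa UMI had Slc2a1 at 39.5 CPM and the other 575 at 16.6, a log2 ratio of 1.25 (0.73 to 1.76). In KO AngII, 75 cells had 44.2 CPM and the other 484 had 15.5, a ratio of 1.52 (0.85 to 2.16). Aldoa was higher in the same cells, by 0.92 and 0.85, and Eno1 by 0.68 and 0.42, while Hk2 was not (0.09 and -0.09). Cnn1 was higher there too, by 0.66 and 1.07, and its part was not tested.

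Fibroblasts were split by Cthrc1, a gene of activated, matrix-making fibroblasts, which had a UMI in 6.27% and 5.34% of saline and 79.9% and 82.0% of AngII fibroblasts (WT, KO). In KO AngII, cells with Cthrc1 had more Eno1 (315 and 194 CPM, log2 ratio 0.70), Ldha (636 and 455, 0.48) and Pkm (479 and 352, 0.44). In WT AngII the same ratios were 0.24, 0.03 and 0.05, and Hk2 had the largest of these 4, 0.44 (0.33 to 0.56), against 0.08 in KO AngII. Cells with Cthrc1 were deeper, with medians of 9809 and 13146 UMIs against 7101 and 7014.

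Fibroblasts with an Ndufa4l2 UMI were compared with the rest in a split that was also added after the values were seen. Depth was not matched in this split. In saline they had less Hk2, 80.2 against 140 CPM in WT (log2 ratio -0.80) and 145 against 264 CPM in KO (-0.87). With AngII the ratios were 0.12 and 0.07, as Hk2 was at 322 and 296 CPM in WT and 360 and 343 CPM in KO. Vegfa was also lower in the Ndufa4l2 cells of WT saline, 5.47 against 19.9 CPM. Ldha and Pkm differed by at most 0.14 in any library.

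In the SMC gate, cells with a UMI of Vcam1, an adhesion molecule of activated vessel cells, had Ldha at 337 against 313 CPM in WT AngII and 486 against 409 CPM in KO AngII. Hk2 was at 179 against 127 CPM and 204 against 174 CPM, the largest log2 ratio of a glycolysis enzyme in WT AngII (0.49). Aldoa was lower in these cells (-0.09 in WT AngII and -0.13 in KO AngII), as was Tpi1 (-0.14 and -0.09). Cells with Vcam1 were deeper, with medians of 12058 against 9867 UMIs and 13794 against 7728. Ndufa4l2 was at 10.9 against 2.62 CPM and 17.8 against 2.15 CPM in these libraries. Dpt, the fibroblast gene, was higher in the same cells, 49.9 against 13.2 CPM and 43.6 against 7.73 CPM. Ndufa4l2 and Dpt were thus both higher in the cells with Vcam1.

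**Figure D5:**
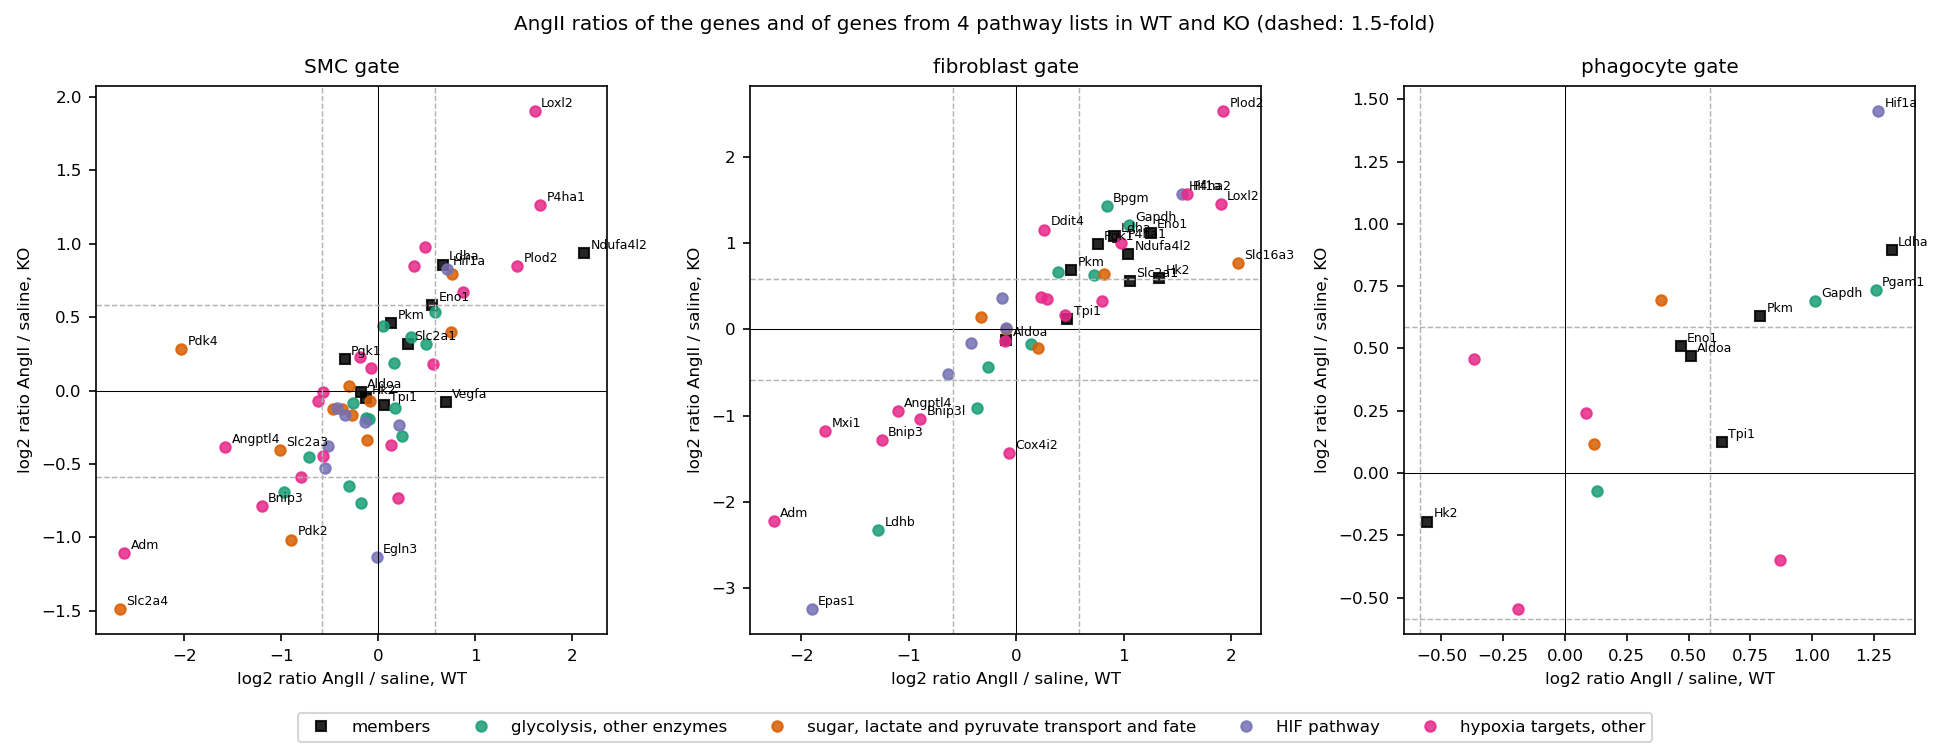
Log2 ratio of AngII over saline in WT (x axis) and KO (y axis) for the members and genes from 4 related lists (colours) in the 3 gates (panels). Points in the upper right corner were higher in both genotypes; Ldha and Hif1a lie there in all 3 panels, and Adm and Bnip3 lie in the lower left in the SMC and fibroblast panels.

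The genes around the members were taken from lists of glycolysis enzymes, transport and fate of sugar and lactate, the HIF pathway, other hypoxia targets and the VEGF family. Over all genes counted, 6.75% were higher and 9.12% lower in both genotypes in smooth muscle cells. In fibroblasts these shares were 7.31% and 11.5%, and in phagocytes 4.7% and 5.47%. They are the background for the list counts here and in the next paragraphs. Of the 16 other glycolysis enzymes, 3 of 8 counted were higher in both genotypes in fibroblasts: Gapdh, Pgam1 and Bpgm. Gapdh, which works between Tpi1 and Pgk1, was at 369.9 and 762.9 CPM in WT saline and WT AngII fibroblasts and at 593.1 and 1373.3 CPM in KO. Ldhb, the lactate dehydrogenase that favors pyruvate, was lower in both genotypes in fibroblasts (-1.28 and -2.33) and in smooth muscle cells (-0.98 and -0.69), opposite to Ldha. In phagocytes 2 of 3 counted enzymes, Gapdh and Pgam1, were higher in both. In smooth muscle cells 0 of 14 were higher and 1, Ldhb, was lower in both.

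Of the transport and fate genes, Slc16a3, which exports lactate, was higher in both genotypes in smooth muscle cells (0.76 and 0.79) and fibroblasts (2.06 and 0.77). Pdk3 joined it in fibroblasts, 2 of 5 counted. Slc2a4, the insulin-responsive glucose transporter, was at 11.8 CPM with saline and 1.86 with AngII in WT smooth muscle cells (-2.67) and was also lower in KO (-1.49). With Pdk2 it made 2 of 12 counted genes lower in both, beside 1 higher, where 9.12% and 6.75% of all genes were.

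Hif1a, the oxygen-regulated part of HIF-1, was higher in both genotypes in every gate: 0.70 and 0.83 in smooth muscle cells, 1.55 and 1.57 in fibroblasts and 1.27 and 1.45 in phagocytes. It was the only one of 8 counted HIF pathway genes in smooth muscle cells, of 6 in fibroblasts and of 1 in phagocytes that was higher in both. Epas1, which encodes HIF-2 alpha, was lower in fibroblasts (-1.90 and -3.24).

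The 20 other hypoxia targets were called in both directions. In smooth muscle cells 5 of 19 counted were higher in both genotypes, beside 6.75% of all genes, among them P4ha1, Plod2, Ddit4 and Loxl2. There 3 were lower (Adm, Bnip3, Mxi1), beside 9.12%. In fibroblasts 5 of 17 were higher, beside 7.31% of all genes, among them P4ha1, P4ha2, Plod2 and Loxl2. Another 5 were lower (Adm, Bnip3, Bnip3l, Mxi1, Angptl4), beside 11.5%. P4ha1, P4ha2, Plod2 and Loxl2 modify collagen, whereas Bnip3 and Bnip3l take part in removal of mitochondria and Adm is a vasodilator peptide. Plod2 reached 1.93 and 2.53 in fibroblasts and Adm -2.26 and -2.22. Of the VEGF family and receptors, Pgf (placental growth factor) was higher in both genotypes in smooth muscle cells (1.47 and 3.44) and fibroblasts (0.87 and 0.68), and Figf (VEGF-D) was lower in fibroblasts (-0.68 and -1.10), out of 7 counted in smooth muscle cells and 6 in fibroblasts. In phagocytes 0 of 2 counted VEGF genes and 0 of 2 transport genes were called in both.

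Across the 12 combinations of gate and library, after each gate's mean was taken off, Ldha and Pkm had a Pearson correlation of 0.95, Slc2a1 and Pgk1 of 0.92 and Ldha and Eno1 of 0.90. Hk2 and Vegfa had the lowest, -0.32. These 12 values come from 4 libraries and share their depth, so the correlations describe them and carry no p. Among 7710 genes, those most like Slc2a1 included Uck2 (0.98) and Psph (0.96), the 3 most like Hk2 were Maged1 (0.96), Gipc1 (0.93) and Slc20a1 (0.93), those most like Vegfa were Rilpl2 (0.98), Pdpn (0.95) and Tsta3 (0.94), and those most like Ndufa4l2 were Cers6 (0.94), Trp53inp2 (0.93) and Cd320 (0.93).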

How the data were processed

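For each of 4 libraries (10x 3′ v3 chemistry) the authors deposited a table of raw UMI counts. Per the submitters' processing notes, Cell Ranger and mm10 were used; a version was not given in the sources used here. Counts were used as deposited, without rescaling between cells, and no doublets were removed. Cells needed at least 500 genes and at most 20% mitochondrial UMIs. Groups came from the labels, 1 library each. UMIs were summed per gate and library and divided by the gate total, with exact Poisson intervals for levels, exact conditional binomial intervals for ratios and Clopper-Pearson intervals for shares (95%, counting error only), in Python 3.11.15 with scipy 1.17.1. Ratio intervals and calls were tested on simulated counts. Alternatives used TMM from edgeR 4.0.16, median-of-ratios scaling, other gates, cell filters and folds. The members, lists and named genes (all 10 members, list genes past the fold in both genotypes, and the 3 genes most like each of 4 members) were chosen with earlier results of these data known. Some genes that this rule names are not reported here.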

Additional observations from a re-analysis of the deposited data

Results flagged for a closer look

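Some genes had AngII over saline ratios of opposite sign in 2 gates or in the 2 genotypes, with counting intervals on either side of 0. The differences below are between log2 ratios, each from 1 library against 1 library, and none of them was tested against replicate error. Between genotypes in smooth muscle cells, the KO ratio exceeded the WT ratio by 0.562 for Pgk1, and for Tpi1 the KO minus WT difference was -0.152. Between gates in WT, the fibroblast ratio exceeded the SMC ratio by 1.105 for Pgk1 and by 1.459 for Hk2. The Hk2 ratio of phagocytes minus that of fibroblasts was -1.887 in WT. In KO the Hk2 ratio of fibroblasts exceeded that of smooth muscle cells by 0.645. For Aldoa the phagocyte ratio exceeded the SMC ratio by 0.689 in WT and the fibroblast ratio by 0.6 in WT and 0.588 in KO. Under TMM scaling the KO SMC ratios of Tpi1 (0.05) and Hk2 (0.10) and the fibroblast ratios of Aldoa (0.03 in both genotypes) are above 0, so those signs depend on the scaling. Stress-gene levels and the share of Lyve1 cells among phagocytes were lower with AngII. Smooth muscle RNA was present in the phagocyte gate at a similar level in all libraries (Cnn1 at 15.9% to 16.7% of its SMC level). The part of these in the differences was not tested.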

How the results depend on the processing

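Of the 32 member ratios past 1.5-fold, 29 stayed past it with TMM scaling and 31 with median-of-ratios scaling. All 32 stayed without the minimum of expected UMIs, and 32 with all deposited cells. With exclusive gates (cells under the marker limits of the other gates) 30 stayed, and 28 with cells of at least 3000 UMIs. With equal weight for each cell 29 stayed, 29 without the 10% of cells with the most UMIs, and 9 reached 2-fold. The Ndufa4l2 ratio of AngII over saline in KO smooth muscle cells changed sign, to -0.4868 with exclusive gates and -0.0863 with equal weight for each cell. The share of all genes counted under the same setting follows each count in parentheses. Among counts of members, AngII over saline in KO smooth muscle cells gave 4 of 10 higher under TMM (13.6%) and median-of-ratios scaling (14.0%). It gave 1 with exclusive gates (8.88%) or equal weight (8.63%). In KO phagocytes TMM scaling gave 1 of 6 (9.44%). For KO over WT in saline fibroblasts, TMM scaling (8.80%) and cells of at least 3000 UMIs (9.80%) each gave 2 of 8. Without the minimum of expected UMIs, AngII over saline gave 6 of 10 higher in WT (14.6%) and 5 of 9 in KO phagocytes (14.7%). KO over WT in saline phagocytes then gave 1 of 9 higher (22.9%) and 2 lower (16.9%). At 2-fold, AngII over saline gave 1 of 10 higher in WT smooth muscle cells (6.44%). It gave 4 of 10 in WT fibroblasts (5.32%) and 1 of 6 in WT phagocytes (4.44%). In KO it gave 0 of 10 in smooth muscle cells (6.27%), 2 of 9 in fibroblasts (5.88%) and 0 of 6 in phagocytes (3.31%). KO over WT at 2-fold gave 1 in saline smooth muscle cells, 0 in saline fibroblasts and 0 in AngII fibroblasts. Exclusive gates gave 1 of 6 members lower in WT phagocytes with AngII (14.4%). KO over WT with AngII gave 1 of 10 higher in smooth muscle cells without the 10% of cells with the most UMIs (5.15%). In phagocytes it gave 1 of 9 with exclusive gates (4.25%), equal weight (4.53%) or without those cells (4.21%). The cause of these changes was not tested. Depth limits Slc2a1, Pgk1, Vegfa and Ndufa4l2 in phagocytes, where KO saline had 479699 UMIs in 83 cells. No paired analysis was possible because each group is 1 library.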

Other observations

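Cells in no gate numbered 424 and 270 in WT (saline, AngII) and 1103 and 480 in KO. In them Ldha was at 213, 402, 257 and 520.3 CPM, Eno1 at 106, 234, 144 and 296 CPM and Hk2 at 67.6, 132, 143 and 174 CPM, in that order. Ndufa4l2 was at 40.3, 43.2, 37.2 and 28.1 CPM there, between its fibroblast and its SMC levels. Their median depth was 3552, 8822.5, 2606 and 11864 UMIs.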
